A study of Mus musculus with 22 samples.

Results

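Of the 72 H/ACA small nucleolar RNAs (snoRNAs) on a custom nCounter panel of mouse cells, 7 are listed only by Ensembl transcript ID and were high in spermatogonial stem cells (SSCs). They were chosen by their values: in each, all 4 SSC samples lay above every sample of NIH3T3, RAW264.7 and a line of embryonic stem cells (ESCs) at day 0. The rule can be applied to the 67 snoRNAs without blank values, of which 34 are listed by Ensembl ID. It was met by 10 of these 67 (14.9%), the 7 described here and the RefSeq-listed Snora30, Snora64 and Snora15. The levels in those 4 groups are therefore a description and are not tested. Of the 38 Ensembl IDs on the panel, 0 are paired with a gene name in the RefSeq table of assembly GRCm38.p6 used here, so the 7 are named by ID, with no host gene, target or sequence. The panel's ID adds a version and an offset after a colon, given where each is introduced and then left out.

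H/ACA snoRNAs are short nucleolar RNAs with a pair of hairpins followed by the H and ACA boxes. Each is bound by dyskerin and its partner proteins, and an internal loop pairs with a target RNA so that dyskerin converts a uridine there to pseudouridine. Most mammalian members are cut out of introns of host genes, modify ribosomal RNA or spliceosomal RNA, and a few instead act in cleavage of the ribosomal RNA precursor. Which of these roles the 7 IDs have is not stated in the sources used here.

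The 22 samples form 7 groups. SSCs (n = 4) are germ cells of the testis that maintain sperm production, and the series design calls them primary cells. Their descriptions give SSC sample 1 one number and share another among samples 2, 3 and 4, so the last may come from 1 source. NIH3T3 (n = 3) is a fibroblast line and RAW264.7 (n = 3) a macrophage line. ESCs at day 0 (n = 3) carry the label aMHC-puro, which names a promoter of heart muscle myosin and puromycin resistance, and cardiomyocytes at day 16 (n = 3) were derived from ESCs through embryoid bodies and selected with puromycin. A retinoic acid experiment gives ESC set A (n = 3) and ESC set B (n = 3). Their label fields contradict each other: set A is called treated in its title and untreated at time 0 in its description, whereas set B carries a plain ESC title and a description with retinoic acid at time 6. Both sets are therefore compared by name, and which of them was treated cannot be told from the labels. Ages, mouse strains and further genotypes are not given in the labels, nor is the origin of the replicates (cultures, animals or repeat preparations), so p-values reflect sample-to-sample variation that may be technical.

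Values are the deposited signal, here called normalized counts, from an instrument that counts colour-coded probes on unamplified RNA. Totals per sample ran from 1045169 to 1314424 in SSCs, from 1137064 to 1317794 in cardiomyocytes and from 1323727 to 1668320 in the other 15 samples. The panel holds snoRNAs only, so the labelled cell types could not be checked against marker genes. Another 5 snoRNAs of the panel, none of the 7, are blank in SSC, NIH3T3 and RAW264.7 and filled in the other 4 groups. ESCs at day 0 thus lie in a different part of the table from the other 3 groups the rule used, and no source used here says whether both parts were run or scaled together. In bulk RNA, fewer cells of a type and less RNA per cell cannot be told apart.

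ENSMUST00000104066.1:17 stood farthest apart in SSCs. Its 4 SSC samples held 16173, 12242, 12428 and 10235 normalized counts, a mean of 12769 ± 2477 (SD, n = 4). The 3 NIH3T3 samples held 2749, 2507 and 2816, the 3 RAW264.7 samples 3791, 3770 and 3435, and the ESCs at day 0 2700, 2000 and 2088. The SSC mean was 4.75 times that of NIH3T3, 3.48 times that of RAW264.7 and 5.64 times that of ESCs at day 0. Over the 67 snoRNAs without blanks the median ratio of SSCs to these groups was 1.15, 0.951 and 0.941.

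The groups the rule did not use lay lower as well. In cardiomyocytes the samples of ENSMUST00000104066 held 1707, 2696 and 3495 normalized counts, in set A 1840, 1737 and 1891, and in set B 4344, 5205 and 4103. Set B came second to SSCs and its samples lay above those of all 5 other groups. In the order of means, SSC, set B, RAW264.7 and NIH3T3 followed each other with no overlap of samples between neighbours. NIH3T3, cardiomyocytes and ESCs at day 0 overlapped with their neighbours, and set A was lowest with all 3 samples below ESCs at day 0.

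ENSMUST00000083184.1:8 also had SSCs first and set B second. It held 9604, 6077, 6719 and 6026 normalized counts in the 4 SSC samples, a mean of 7107 ± 1695 (SD, n = 4). RAW264.7 was the highest of the groups used by the rule, at 3480, 2800 and 2801. NIH3T3 held 1351, 1498 and 1508 and ESCs at day 0 held 2077, 1385 and 1447. The SSC mean was 4.89 times that of NIH3T3 and 2.35 times that of RAW264.7.

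Outside the rule, ENSMUST00000083184 held 4039, 3690 and 3016 normalized counts in set B and 1000, 1339 and 1510 in set A. Cardiomyocytes held 1160, 2191 and 1830. All SSC samples lay above all of these. Set B and RAW264.7 overlapped, and the 4 lowest groups (cardiomyocytes, ESCs at day 0, NIH3T3 and set A, in this order of means) each overlapped with the next.

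ENSMUST00000104203.1:25 varied little between replicates outside SSCs. Its SSC samples held 4622, 3830, 3796 and 3160 normalized counts, against 1551, 1408 and 1474 in NIH3T3, 2050, 2074 and 1903 in RAW264.7 and 1222, 1247 and 1243 in ESCs at day 0. Cardiomyocytes held 1516, 1859 and 1870, set A 1168, 1073 and 1087 and set B 1646, 1845 and 1741. The SSC mean of 3852 ± 599 (SD, n = 4) was 1.92 times the RAW264.7 mean, which was the next highest. Of the neighbouring means, those of cardiomyocytes and set B (1748 and 1744) had samples that overlapped. SSCs lay above RAW264.7, RAW264.7 above cardiomyocytes, set B above NIH3T3, NIH3T3 above ESCs at day 0 and these above set A, each with no overlap.

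ENSMUST00000083703.1:31 reached SSC levels in set B and in cardiomyocytes. Its SSC samples held 34204, 26703, 29360 and 22501 normalized counts, a mean of 28192 ± 4903 (SD, n = 4). Set B held 21678, 27555 and 28429 and cardiomyocytes held 20753, 25903 and 25763, and both overlapped with SSCs. In the groups used by the rule it held 17939, 15944 and 16197 in ESCs at day 0, 16119, 14542 and 16157 in NIH3T3 and 10037, 10325 and 9301 in RAW264.7. Set A held 15042, 13683 and 13955. RAW264.7 was the lowest group, with all 3 samples below all others, and of the 7 snoRNAs this is the 1 with its lowest mean there.

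ENSMUST00000083155.1:32 had about the same mean in set B as in SSCs, with a wide spread in set B. Set B sample 1 lay above all SSC samples and the other set B samples below all of them. Its SSC samples held 6271, 7126, 7802 and 7846 normalized counts and set B held 12040, 5721 and 4159, so the means of 7261 ± 738 (SD, n = 4) and 7307 ± 4173 (SD, n = 3) differed by less than the spread. RAW264.7 held 5355, 2361 and 1900, and its sample 1 was the sample closest to SSCs among the groups of the rule. NIH3T3 held 1613, 2135 and 2085 and ESCs at day 0 held 2166, 2549 and 2176. Cardiomyocytes held 3635, 4230 and 2301, and set A 1645, 2349 and 3202. Below SSCs, cardiomyocytes, RAW264.7, set A and ESCs at day 0 overlapped from neighbour to neighbour, and NIH3T3 was lowest with all 3 samples below ESCs at day 0.

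ENSMUST00000103979.1:77 also had its highest mean in set B. Set B held 16804, 9304 and 12000 normalized counts and the SSC samples 10697, 12968, 11306 and 10581, with means of 12702 ± 3799 (SD, n = 3) and 11388 ± 1100 (SD, n = 4). ESCs at day 0 held 2671, 8552 and 4813, a 3.20-fold range within 1 group. NIH3T3 held 4783, 6503 and 6388, RAW264.7 held 7652, 5302 and 3510, cardiomyocytes 6422, 10170 and 4215 and set A 6232, 6399 and 4454. These 5 groups overlapped from neighbour to neighbour, and their means lay between 5345 and 6936. After quantile normalization this was the 1 snoRNA of the 7 that no longer met the rule.

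ENSMUST00000082962.1:28 varied most. In SSCs it held 6712, 8521, 8523 and 8973 normalized counts, but in set B it ranged 15.0-fold, from 1000 in sample 4 through 5854 in sample 3 to 15017 in sample 1. Cardiomyocytes ranged 5.46-fold, at 8535, 1563 and 2711. NIH3T3 held 3189, 4036 and 4148, RAW264.7 4646, 6059 and 4273, ESCs at day 0 3087, 4957 and 3527 and set A 3538, 4594 and 2035. Every neighbouring pair of group means overlapped. The groups above which all SSC samples stood were NIH3T3, RAW264.7, ESCs at day 0 and set A.

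**Figure D1:**
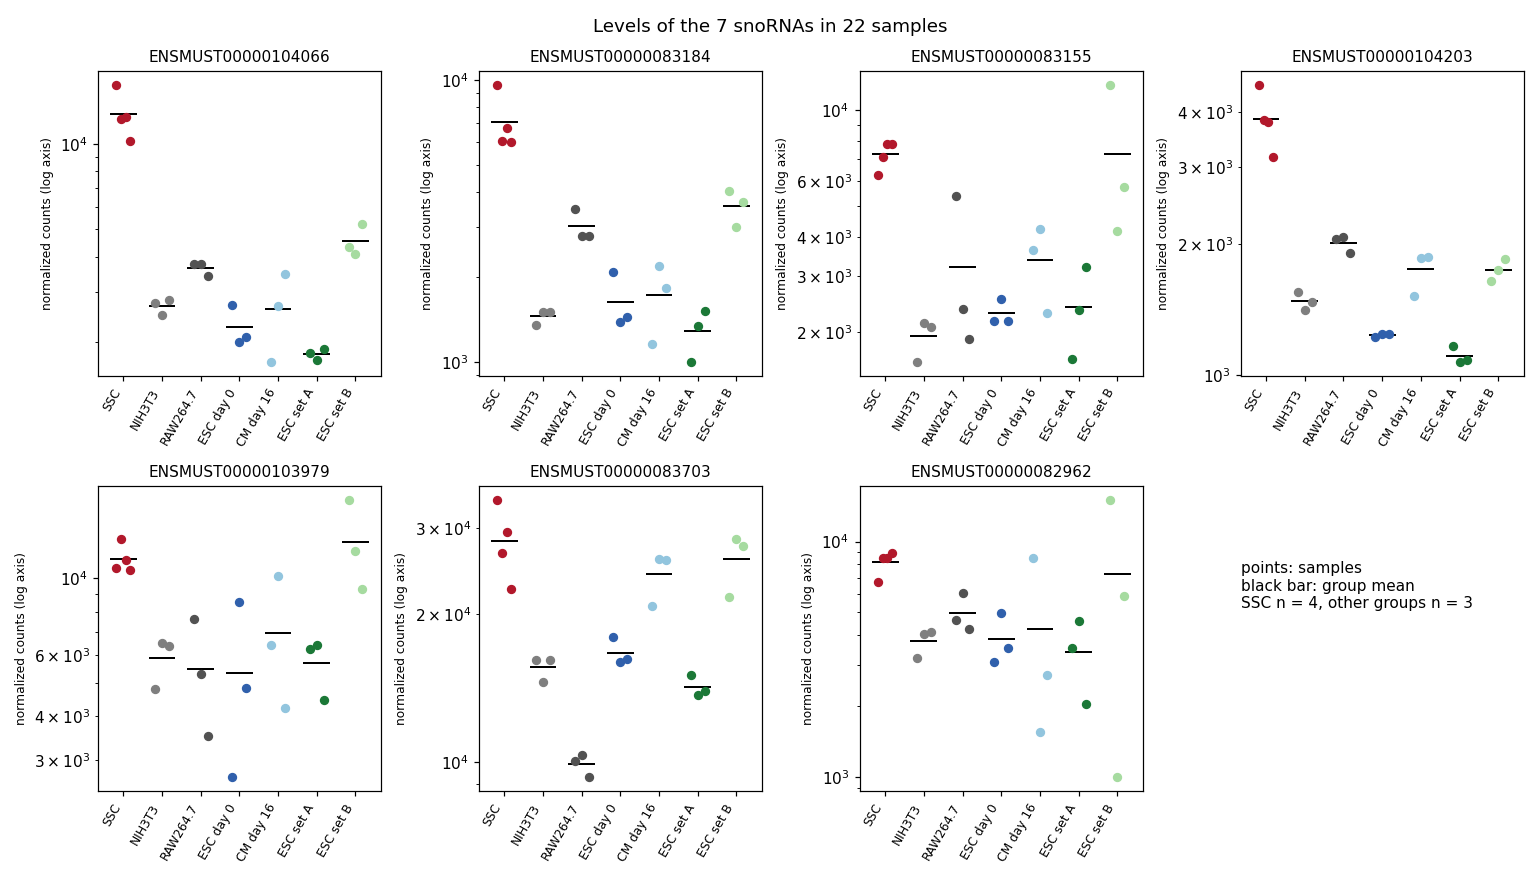
Normalized counts of the 7 snoRNAs on a log axis, 1 panel per snoRNA, in 7 groups; points are samples (SSC n = 4, others n = 3) and black bars group means. SSC samples lie above NIH3T3, RAW264.7 and ESC day 0 in each panel, as the rule requires. In ENSMUST00000103979 and ENSMUST00000083703, 2 set B samples lie above the lowest SSC sample. In ENSMUST00000083155 and ENSMUST00000082962 set B sample 1 alone does, and it lies above every SSC sample.

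The margin by which the rule was met differed widely. The lowest SSC sample of ENSMUST00000104066 was 2.70 times the highest sample of the other 3 groups, while the margins just inside were 1.11 for ENSMUST00000082962 (6712 against 6059 in RAW264.7) and 1.17 for ENSMUST00000083155 (6271 against 5355 in RAW264.7). Just outside lay ENSMUST00000082703 at 0.956 and ENSMUST00000116715 at 0.921. These 2 held less signal, with a lowest SSC sample of 1325 and 878 normalized counts.

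Set beside the 3 groups that the rule did not use, all 4 SSC samples lay above every set A sample in 7 of the 7, above every cardiomyocyte sample in 5 and above every set B sample in 3. The same held over the 67 snoRNAs without blanks for 40.3% against set A, 40.3% against cardiomyocytes and 20.9% against set B. The 5 that stood above cardiomyocytes exclude ENSMUST00000083703 and ENSMUST00000082962. The 3 that stood above set B are ENSMUST00000104066, ENSMUST00000083184 and ENSMUST00000104203. Since SSC values chose the 7, these counts describe their levels and test nothing. The count against cardiomyocytes fell to 2 after median centring and to 3 after mean centring or quantile normalization. The 40.3% is from the values as deposited. The panel's share under these scalings is not given here, so the lower counts cannot be set beside it.

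Within SSCs the 7 split by sample. SSC sample 1 was the highest in ENSMUST00000104066, ENSMUST00000083184, ENSMUST00000104203 and ENSMUST00000083703 and the lowest in ENSMUST00000083155 and ENSMUST00000082962. SSC sample 4 was the lowest in the first 4 and in ENSMUST00000103979, and the highest in ENSMUST00000083155 and ENSMUST00000082962. Total signal differed among the SSC samples (from 1045169 to 1314424), and its part in these orders was not tested.

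The retinoic acid experiment is the comparison that shares no sample with the rule. Of the 7 snoRNAs, 6 were higher in set B than in set A (limma on log2 of the value plus 1, adjusted p under 0.05 over all 72 snoRNAs) and 0 were lower, and the same 6 had an unadjusted p under 0.05, as did 38 of the 72. Over the whole panel 29.2% were called higher in set B and 16.7% lower. In the same 6 every set B sample lay above every set A sample, against 31.9% of the panel without overlap and higher in set B. The median log2 difference of the 7 was 1.13, beside 0.16 over all 72.

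In this comparison ENSMUST00000104066 was 2.48-fold higher in set B, at 4551 ± 579 normalized counts against 1823 ± 79 in set A (SD, n = 3 each; log2 difference 1.31 ± 0.13 SE, adjusted p 0.00089). ENSMUST00000083184 was 2.81-fold higher, at 3582 ± 520 against 1283 ± 259 (1.49 ± 0.20, adjusted p 0.0028). These 2 passed under each of the 14 alternative settings run, with log2 differences of 1.17 to 1.51 and 1.32 to 1.69 and adjusted p-values of at most 0.025 and 0.026. ENSMUST00000104203 showed a smaller difference, 1.57-fold (0.65 ± 0.10, adjusted p 0.0041), from 1109 ± 51 to 1744 ± 100. ENSMUST00000083703 was 1.81-fold higher (0.85 ± 0.14, adjusted p 0.0052), from 14227 ± 719 to 25887 ± 3671.

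The other 3 varied more between replicates. ENSMUST00000103979 was 2.19-fold higher in set B (1.13 ± 0.27, adjusted p 0.019) and ENSMUST00000083155 2.85-fold higher (1.51 ± 0.46, adjusted p 0.044). For ENSMUST00000082962 the log2 difference was 0.47 ± 1.02 with a 95% confidence interval from -2.08 to 3.02 (adjusted p 0.72), so a difference in either direction was not detectable at this spread. Without set B sample 1 its estimate was -0.41 and without set B sample 4 it was 1.55 (adjusted p 0.73 and 0.084).

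Scaling ended 3 of the 6 calls while the estimates stayed above 0. ENSMUST00000104203 did not pass after median centring, mean centring or quantile normalization (log2 differences 0.85, 0.51 and 0.55, adjusted p 0.064, 0.15 and 0.12). ENSMUST00000083703 did not after mean centring or quantile normalization (0.71 and 0.76, adjusted p 0.097 and 0.15), nor ENSMUST00000083155 after quantile normalization (1.25, adjusted p 0.071). ENSMUST00000083155 also lost its call without set A sample 1, 3 or 4 (1.27, 1.52 and 1.75, adjusted p 0.14, 0.12 and 0.060) or set B sample 1 or 3 (1.08 and 1.61, adjusted p 0.058 and 0.095). ENSMUST00000103979 lost it without set A sample 1, 3 or 4 (1.21, 1.23 and 0.97, adjusted p 0.057, 0.056 and 0.060).

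**Figure D2:**
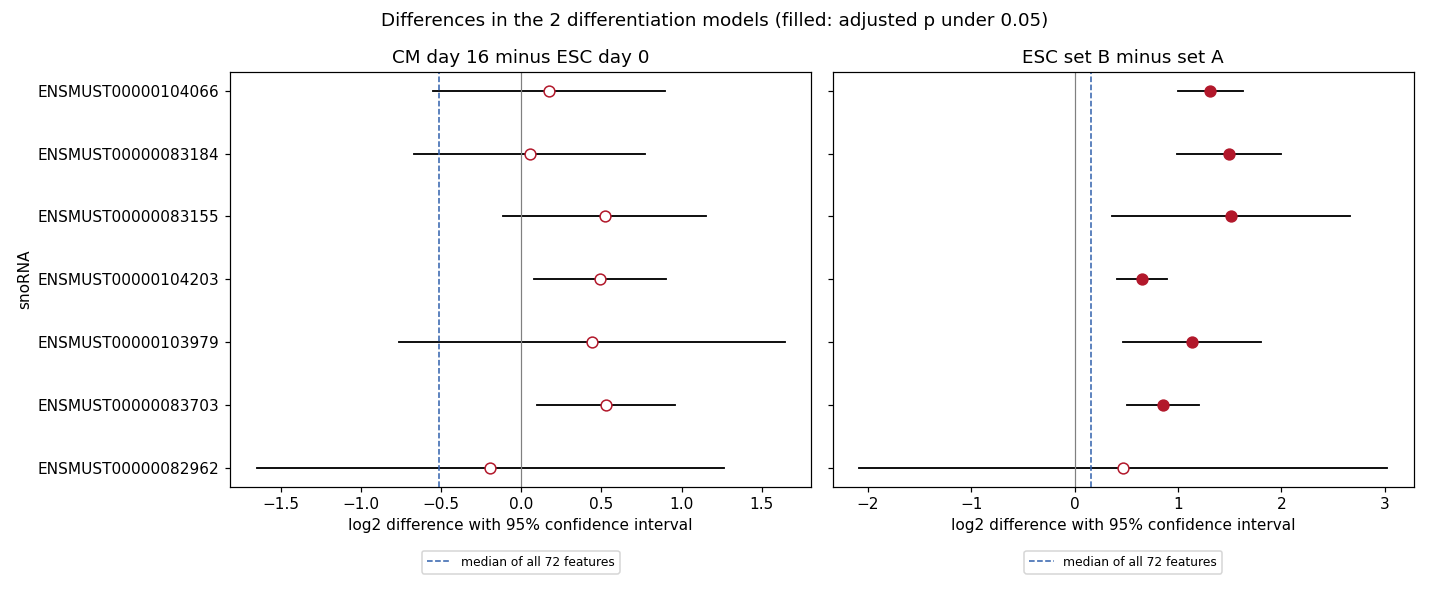
Log2 differences (x axis) of the 7 snoRNAs with 95% confidence intervals in both differentiation models, filled where the adjusted p is under 0.05 and with the median of all 72 snoRNAs as a dashed line. The 6 filled points are all in set B minus set A, between 0.65 and 1.51, and none of the 7 is filled in cardiomyocytes.

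In the cardiomyocyte model none of the 7 passed the test in either direction, where 29.2% of the panel was called lower at day 16 and 1.39% higher. At an unadjusted p under 0.05, 2 of the 7 and 34 of the 72 differed. The panel's direction depended on the scaling: calls were 1 higher and 21 lower as deposited, 6 higher and 0 lower after median centring, 3 higher and 0 lower after quantile normalization, and 0 after mean centring (22 at an unadjusted p under 0.05). The panel count was also 0 in limma without day 0 sample 1, 2 or 4 or cardiomyocyte sample 4 (29, 23, 21 and 30 at an unadjusted p under 0.05), 7 without cardiomyocyte sample 2 and 34 without cardiomyocyte sample 1. The day 0 samples are among those that the rule required to be low, so the choice of members itself favours higher values at day 16, and all day 16 values of the 7 are to be read with that limit. The median log2 difference of the 7 was 0.44, against -0.51 over all 72 snoRNAs, and 6 of the 7 estimates lay above 0 compared with 18 of 72. The panel median was itself 0.38 after median centring, -0.01 after mean centring and -0.05 after quantile normalization.

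Closest to the threshold were ENSMUST00000083703, at 24140 ± 2934 normalized counts on day 16 against 16693 ± 1086 on day 0 (SD, n = 3 each; log2 difference 0.53 ± 0.18 SE, adjusted p 0.065), and ENSMUST00000104203, at 1748 ± 201 against 1237 ± 13 (0.49 ± 0.17, adjusted p 0.070). In both, the 3 day 16 samples lay above the 3 day 0 samples, which over the panel was so in 6.94%. The remaining members overlapped between day 0 and day 16. ENSMUST00000083155 and ENSMUST00000103979 had log2 differences of 0.52 ± 0.26 and 0.44 ± 0.50, and ENSMUST00000104066 and ENSMUST00000083184 of 0.17 ± 0.30 and 0.05 ± 0.30. The 95% confidence interval of ENSMUST00000104066 ran from -0.55 to 0.89 and that of ENSMUST00000083184 from -0.67 to 0.77. For ENSMUST00000082962 the estimate was -0.19 ± 0.61, which turned positive after median centring, mean centring and quantile normalization (0.70, 0.31 and 0.09).

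Whether the members near the threshold were called depended on the scaling, on 1 library and on the samples fitted. After median centring 3 passed as higher (ENSMUST00000083155, ENSMUST00000104203 and ENSMUST00000083703, log2 differences 1.41, 1.39 and 1.42, adjusted p 0.026 each), of 6 in the panel. After quantile normalization 2 did (ENSMUST00000104203 and ENSMUST00000083703, 1.22 and 1.08, adjusted p 0.049 each), of 3 in the panel. Without cardiomyocyte sample 1, ENSMUST00000104203 and ENSMUST00000083703 passed as well (0.59 and 0.63, adjusted p 0.025 each), among 34 calls over the panel, and so they did with all 7 groups in 1 fit (adjusted p 0.0028 and 0.0049), among 38 of the 67 snoRNAs with a value in every sample. Low day 0 values were part of the rule, so these calls are not independent of it.

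**Figure D3:**
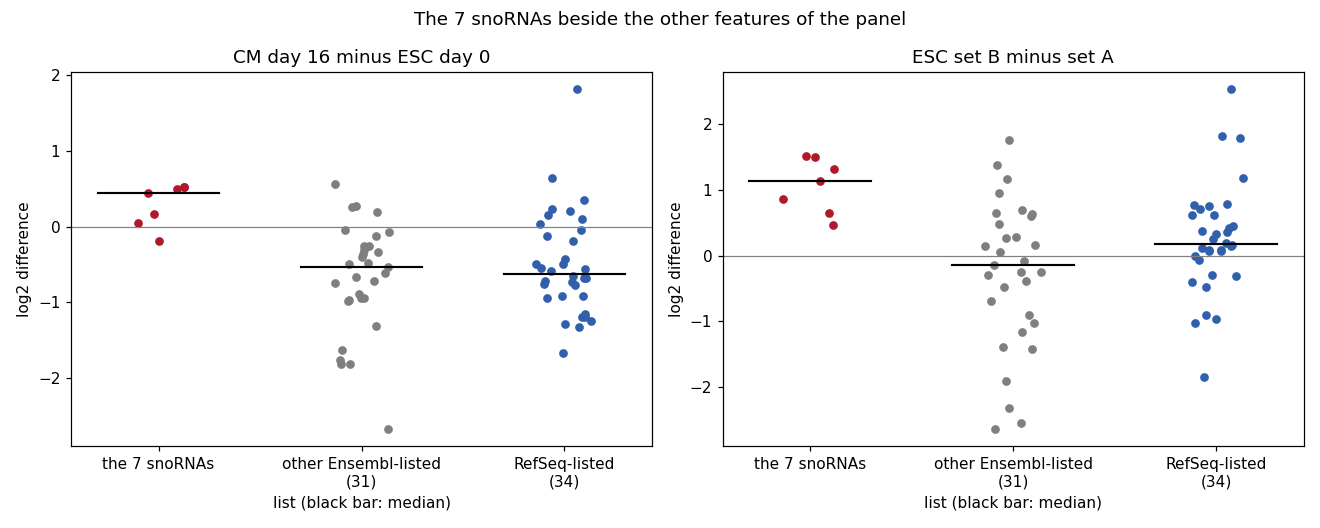
Log2 differences (y axis) of the 7 snoRNAs, of the other 31 Ensembl-listed and of the 34 RefSeq-listed snoRNAs in both models; each point is 1 snoRNA and black bars are medians. The medians of the 7 are 0.44 at day 16 and 1.13 in set B minus set A, and those of the other Ensembl-listed snoRNAs are -0.53 and -0.14; the rule required low day 0 values of the 7, which bears on the day 16 panel.

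The rest of the panel gives the setting for these values. Of the other 31 Ensembl-listed snoRNAs, 0 were called higher and 9 lower in cardiomyocytes, with a median log2 difference of -0.53 and 13 at an unadjusted p under 0.05. Between the sets, set B had 7 of them higher and 7 lower than set A, with a median of -0.14. Of the 34 RefSeq-listed snoRNAs, 1 was called higher and 12 lower in cardiomyocytes (median -0.62), and set B had 8 of them higher and 5 lower than set A (median 0.18). The difference between these lists and the 7 was not tested, and at day 16 the rule's demand for low day 0 values favours higher estimates in the 7.

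Spread between replicates differed among the 7. In SSCs the rule bounds values from below, and in NIH3T3, RAW264.7 and ESCs at day 0 from above, which can narrow the spread. It sets no bound in the other 3 groups. On the log2 scale, ENSMUST00000104203 had SDs of 0.02 to 0.22 over the groups, and ENSMUST00000083703 of 0.07 to 0.25. By contrast, ENSMUST00000083155 reached 0.79 in both RAW264.7 and set B, ENSMUST00000103979 reached 0.84 in ESCs at day 0 and ENSMUST00000082962 reached 1.25 in cardiomyocytes and 1.98 in set B. The median SD over 67 snoRNAs was 0.15 in RAW264.7, 0.22 in ESCs at day 0, 0.39 in cardiomyocytes and 0.22 in set B. Of the 67, none had a larger SD in set B than ENSMUST00000082962, and 3 had a larger one in cardiomyocytes. In SSCs the 7 lay between 0.13 and 0.32.

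**Figure D4:**
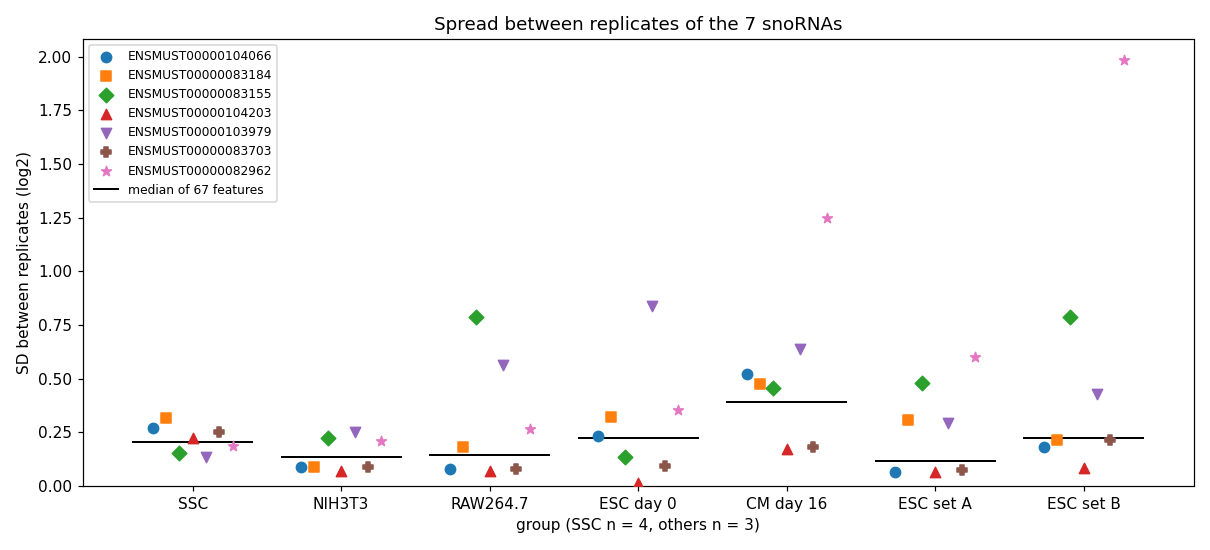
SD between replicates on the log2 scale (y axis) for each of the 7 snoRNAs in each group, with the median over 67 snoRNAs as a black bar. ENSMUST00000082962 stands at 1.98 in set B and 1.25 in cardiomyocytes, while the 7 lie between 0.13 and 0.32 in SSCs.

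Likeness of the profiles was measured by Pearson's r over the 7 group means of log2 values, which share libraries and scaling, as a description. The rule used 4 of the 7 groups, so likeness among the 7 is in part built in by their choice. The same holds for their likeness to Snora30, which also met the rule. The 21 pairs among the 7 had a median r of 0.77, from 0.32 (ENSMUST00000083703 with ENSMUST00000082962) to 0.97 (ENSMUST00000104066 with ENSMUST00000083184). Both nearest profiles of ENSMUST00000104066, ENSMUST00000083184, ENSMUST00000104203 and ENSMUST00000082962 were others of the 7 (r 0.92 to 0.97). The set B and cardiomyocyte means of ENSMUST00000082962 come from widely spread samples (log2 SDs of 1.98 and 1.25). ENSMUST00000083155 was closest to Snora30 (r 0.96), a guide of 28S ribosomal RNA in its human counterpart, and then to ENSMUST00000103979 (r 0.94). Snora30 held 17326, 14073, 13309 and 10949 normalized counts in SSCs and 10392, 13743 and 11059 in set B, against 3370, 3375 and 3352 in set A.

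ENSMUST00000103979 was closest to Snora65 (r 0.96) and then to ENSMUST00000083155. ENSMUST00000083703 was closest to Snora81 (r 0.90), known to lie in an intron of Eif4a2, and to Snora78 (r 0.82). Its profile was thus the 1 of the 7 without another of the 7 among its nearest 2.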

How the data were processed

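The deposited table holds a signal for 72 snoRNAs in 22 samples, on a linear scale as the values show. The normalization, software, background treatment and raw depth behind the deposited signal are not given in the sources used here, so no counting interval was computed. RNA was extracted with Trizol, DNase-treated and column-purified, per the labels' protocols.

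Differences were fitted on log2(value + 1), each comparison on its own 6 samples, by lmFit and eBayes of limma (version 3.58.1, under R 4.3.3). Tests were two-sided, and p-values were adjusted by Benjamini-Hochberg over all 72 snoRNAs with a threshold of 0.05. Folds in tested comparisons come from that scale. Ratios to SSCs are of mean normalized counts. The fit was tested on simulated data. The 7 snoRNAs, the lists and the tests were chosen with earlier results of these data known. The text names the 7, the 2 nearest profiles of each over group means, and the 2 Ensembl-listed snoRNAs nearest the rule on each side. Alternatives were 3 scalings, a pseudocount of 10, a minimum mean of 100, all 7 groups in 1 fit, replicate blocks and each replicate left out.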

Additional observations from a re-analysis of the deposited data

How the results depend on the processing

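In cardiomyocytes against day 0, the count of called snoRNAs (22 of 72, 1 higher and 21 lower) became 6 after median centring (6 higher, 0 lower), 0 after mean centring (22 at an unadjusted p under 0.05 in limma), 3 after quantile normalization (3 higher, 0 lower), 38 of 67 with all 7 groups in 1 fit (4 higher, 34 lower) and 8 with a replicate block (all lower), and ran from 0 to 34 with 1 replicate left out. Among the 7 the count of 0 became 3 after median centring, 2 after quantile normalization and 2 with all 7 groups in 1 fit, and ran from 0 to 2 with 1 replicate left out. In set B against set A, the 33 calls became 20 after quantile normalization and 14 or 15 with a replicate block (numbers from the descriptions or the titles), and ran from 17 to 36 with 1 replicate left out. Among the 7, the 6 calls became 3 after quantile normalization and 2 or 3 with these blocks, and ran from 4 to 6. Whether same-numbered samples were paired was not tested. Their deviations from the group means correlated between -0.27 and 0.14 at day 16 and day 0. In the sets they correlated between -0.36 and 0.33 by description and between -0.63 and -0.16 by title. The count of members with SSCs above all cardiomyocytes (5) was 2 after median centring and 3 after mean centring or quantile normalization. The panel's share under these scalings is not given here. Signs turned for ENSMUST00000082962 at day 16 (0.70, 0.31 and 0.0851 under median centring, mean centring and quantile normalization; -0.88 to 0.35 with 1 replicate left out) and in the sets (-0.41 to 1.55), and at day 16 for ENSMUST00000083184 (-0.14 to 0.32) and ENSMUST00000104066 (-0.0642 to 0.45). The cause was not tested. The planned count-based tests were not run.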

Other observations

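Deviations from the group mean were compared across all 22 samples, a measure chosen after the values were seen. ENSMUST00000082962 moved most closely with Snora75, a snoRNA of the nucleolin gene Ncl, with r 0.97 over 22 samples that share libraries. The order of samples was the same for both in NIH3T3, ESCs at day 0, set A, set B and cardiomyocytes. In RAW264.7 both were highest in sample 2, but their lowest samples differed. In SSCs the orders differed: Snora75 held 15658, 12657, 15236 and 15061 normalized counts, highest in sample 1, where ENSMUST00000082962 was lowest. Snora75 held 33612, 9133 and 2332 normalized counts in set B samples 1, 3 and 4, and 16952, 2840 and 5640 in cardiomyocyte samples 1, 2 and 4. Both snoRNAs were thus highest in sample 1 of set B and of cardiomyocytes, and lowest in set B sample 4 and cardiomyocyte sample 2.

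This pattern was shared by part of the panel. Of the 72 snoRNAs, 23 were more than 2-fold higher in set B sample 1 than in sample 4, and 0 were more than 2-fold lower. In cardiomyocytes 15 were more than 2-fold higher in sample 1 than in sample 2 and 2 were lower, and 10 snoRNAs are among both the 23 and the 15. Of the 7, ENSMUST00000082962 and ENSMUST00000083155 are among the 23, and ENSMUST00000082962 is among the 15. The samples compared are the highest and lowest of ENSMUST00000082962 in each group, so its own place in both lists was fixed by that choice.

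Snora68 was among the 3 closest partners of ENSMUST00000104066, ENSMUST00000104203 and ENSMUST00000083703 (r 0.95, 0.85 and 0.87), and the last 2 were each closest to the other (r 0.89). Deviations of ENSMUST00000083184 were closest to those of Snora5c (r 0.91). For ENSMUST00000103979 the closest was Snora36b, with r 0.64.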
